A study of Mus musculus with 10 samples.

Results

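The genes described here are the 3 genes of complement C1q (*C1qa*, *C1qb* and *C1qc*) and 7 genes known from macrophages of the marrow and spleen (*Fcna*, *Cd5l*, *Hmox1*, *Mrc1*, *Spic*, *Vcam1* and *Slc40a1*), 10 of the 51717 genes summed from the deposited files. They were chosen by name, with their difference between recent *Mpc2* KO and WT granulocyte-macrophage progenitors (GMPs) already known, so their levels in that comparison are given as a description without a test. Whether they also varied together among samples of the same genotype was tested with the group difference removed. Earlier results of these data were known when the genes were chosen, so this test cannot be called independent of the choice.

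GMPs are marrow progenitors that give rise to neutrophils and monocytes. The study asked how they change when *Mpc2*, which encodes a subunit of the mitochondrial pyruvate carrier, is deleted. CD45.2+ GMPs were sorted after CD27+ enrichment from bone marrow chimeras, in which marrow with CD45.2 donor cells had repopulated irradiated CD45.1 hosts. Elsewhere the paper's recent *Mpc2* KO chimeras mixed CD45.2 donor marrow with CD45.1 WT marrow. Its full *Mpc2* KO chimeras did not survive 2 wk of tamoxifen. The methods do not state whether the sequenced chimeras were mixed. The 5 WT samples were ROSA26 CreER+/- and the 5 recent KO samples were Mpc2fl/fl; ROSA26 CreER+/-. Both groups were male and C57Bl6/N. Both carried the tamoxifen-inducible Cre, which the ROSA26 locus drives in all CD45.2 donor cells. Both received tamoxifen chow for 2 wk up to the time of collection. Each WT sample came from 1 mouse and each recent KO sample pooled 2 mice, so the spread in the KO group is between pools. CD45.1 cells, from the host or from any competitor marrow, lay outside the gate by label. The age of the animals is not given in the sources used here.

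C1q is the recognition molecule of the classical complement pathway. Its A, B and C chains assemble together, bind antibody on a target or the surface of a dying cell, and activate the proteases C1r and C1s. Unlike most complement proteins, which the liver secretes, C1q is made largely by macrophages. Macrophages of the marrow support erythroblasts, engulf their expelled nuclei and worn-out red cells, break down heme and return the iron to the plasma.

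Totals ran from 14033776 to 19745405 estimated reads per sample. A level of 3 reads, taken as the floor, corresponded to between 0.147 and 0.233 normalized CPM, reads scaled to library size,. *Mpc2* itself was at 60.9 to 117 CPM in WT against 17.1 to 43.9 CPM in recent KO samples, with no overlap (log2 fold change -1.46, SE 0.24, adjusted p = 0.0156 from edgeR). Of 12381 genes tested across the 10 samples, 41 had an adjusted p under 0.05, which is 0.331%, and 15 of them, or 0.121% of those tested, were higher in recent KO. With library sizes in place of TMM scaling, 46 genes were called, or 0.372%, and the balance turned to 26 higher and 20 lower, against 15 higher and 26 lower. An unadjusted p under 0.05 was reached by 1268 genes, or 10.2%. The markers of the GMP itself were abundant in every sample, summing to 53883 to 127567 CPM.

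RefSeq sequence next to the gene start was found for 6 of the 10 genes (*C1qb*, *C1qc*, *Fcna*, *Cd5l*, *Mrc1* and *Spic*). The bases before the start of the annotated transcript are printed for the 4 genes among them with the largest fold changes in the edgeR fit, 5′ to 3′ on the strand of the gene, in build GRCm38.p6. For *C1qb* this is chr4:136886201-136886450 on the minus strand, for *C1qc* chr4:136893066-136893164 on the minus strand, for *Fcna* chr2:25628031-25628224 on the minus strand and for *Cd5l* chr3:87357631-87357880 on the plus strand. Windows shorter than 250 bases were cut where a longer annotated transcript began. Capitals mark GAGGAA, the core of the motif bound by PU.1 and its relative SPI-C, or its reverse complement TTCCTC.
C1qb: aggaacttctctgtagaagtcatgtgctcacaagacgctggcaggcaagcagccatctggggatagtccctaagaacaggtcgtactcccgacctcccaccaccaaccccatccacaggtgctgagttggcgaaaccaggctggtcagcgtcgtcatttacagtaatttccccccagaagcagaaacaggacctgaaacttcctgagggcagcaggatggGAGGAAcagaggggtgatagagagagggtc
C1qc: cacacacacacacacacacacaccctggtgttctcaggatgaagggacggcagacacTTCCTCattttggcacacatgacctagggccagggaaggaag
Fcna: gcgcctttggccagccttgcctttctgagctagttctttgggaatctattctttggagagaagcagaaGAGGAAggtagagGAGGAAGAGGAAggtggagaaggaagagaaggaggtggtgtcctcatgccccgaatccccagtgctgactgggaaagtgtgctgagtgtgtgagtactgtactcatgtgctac
Cd5l: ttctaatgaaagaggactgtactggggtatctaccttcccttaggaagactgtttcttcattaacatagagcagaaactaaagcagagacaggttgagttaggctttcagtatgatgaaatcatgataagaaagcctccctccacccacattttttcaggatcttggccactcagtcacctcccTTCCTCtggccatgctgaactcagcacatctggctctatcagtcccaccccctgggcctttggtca

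GAGGAA was present on one strand or the other in all 5 windows searched, the fifth being that of *Mrc1*, while the window of *Spic* fell inside an annotated transcript and was not used. It occurred 3 times in the windows of *Fcna* and *Mrc1* and once in each of the others. Among 32851 RefSeq windows, 9.91% held it within 99 bases, 18.3% within 194 bases and 23.3% within 250 bases. TGCTGA, the core of the element bound by MAF factors and by BACH1 and NRF2 with their MAF partners, was present in 3 of the 5 windows (*C1qb*, *Fcna* and *Cd5l*) and in 16.1% of all windows of 250 bases. TGACTCA, an AP-1 site, was searched on both strands in the same windows and had 0 matches. These matches are descriptions of letters and carry no measurement of binding.

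The 3 C1q genes lie side by side within 18.7 kb of chromosome 4, between positions 136880129 and 136898803 of GRCm38, all on the minus strand, and each had reads on a protein-coding transcript. In recent KO GMPs all 3 were higher by a similar factor, so that the summed C1q level was 2.67 times that of WT. *C1qa*, encoding the A chain, was at 1.71, 2.61, 1.90, 2.25 and 3.65 CPM in WT samples 1 to 5 and at 4.92, 7.83, 6.65, 5.42 and 4.12 CPM in recent KO samples 1 to 5. *C1qb*, encoding the B chain, was at 2.69, 3.38, 3.38, 3.89 and 6.71 CPM in WT and at 11.3, 12.5, 11.1, 8.22 and 8.14 CPM in recent KO. *C1qc*, encoding the C chain, was at 2.06, 2.88, 2.26, 4.59 and 5.87 CPM in WT and at 11.04, 15.9, 10.996, 7.61 and 7.27 CPM in recent KO. For each of the 3 genes the lowest recent KO sample was above the highest WT sample, WT sample 5, and recent KO sample 2 was highest.

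The log2 fold changes were 1.25 (SE 0.23) for *C1qa*, 1.35 (SE 0.22) for *C1qb* and 1.59 (SE 0.29) for *C1qc*. Summed over the chains, C1q was at 9.97 ± 3.84 CPM in WT against 26.6 ± 6.64 CPM in recent KO (SD, n = 5 each). These levels rest on few reads, from 127 to 271 per WT sample and from 349 to 588 per recent KO sample. On the TPM scale, which corrects for transcript length, *C1qb* made up 41.6 ± 3.24% of C1q in WT and 40.4 ± 2.88% in recent KO, *C1qa* made up 27.3 ± 3.44% and 24.1 ± 2.91%, and *C1qc* made up 31.1 ± 4.87% and 35.5 ± 2.96%. The share of each chain overlapped between the groups, while the C1q total did not.

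Within 200 kb, *Zbtb40* was the only other gene with enough reads to test, at 3.14 ± 0.892 CPM in WT against 2.99 ± 0.501 CPM in recent KO (log2 fold change -0.062, SE 0.22, adjusted p = 0.956 from edgeR). *Ephb2* was at 0.366 CPM in both groups and was not tested, and *Epha8* and the small nucleolar RNA gene *Gm23834* had 0 reads.

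**Figure D1:**
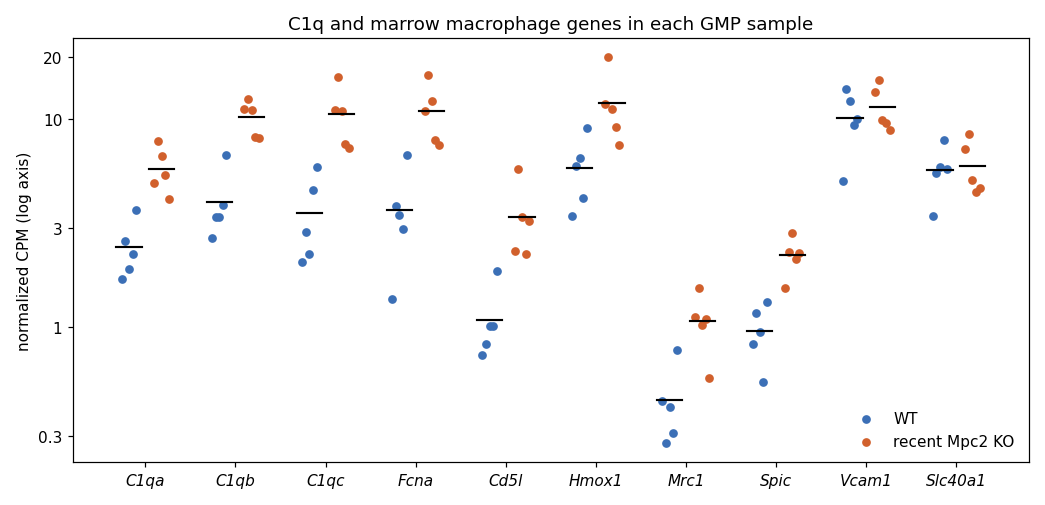
Normalized CPM on a log axis for the 10 genes, with 1 dot per sample, WT in blue and recent *Mpc2* KO in orange, and a black bar at each group mean (n = 5 each). For *C1qa*, *C1qb*, *C1qc*, *Fcna*, *Cd5l* and *Spic* all orange dots lie above all blue dots, while for *Vcam1* and *Slc40a1* the groups overlap.

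*Fcna* (chr2:25624666-25628030, minus strand) encodes ficolin A, a secreted lectin that starts the lectin pathway of complement, and like C1q it is made by macrophages of marrow and spleen. It was at 1.37, 3.83, 3.44, 2.95 and 6.71 CPM in WT samples 1 to 5 and at 10.9, 16.4, 12.2, 7.91 and 7.53 CPM in recent KO samples 1 to 5. The groups did not overlap, and the extremes were the same samples as for C1q, with WT sample 1 lowest, WT sample 5 highest in its group and recent KO sample 2 highest of all. The means were 3.66 ± 1.94 and 10.97 ± 3.60 CPM (SD, n = 5 each), a log2 fold change of 1.58 (SE 0.32). Per unit of C1q, *Fcna* was at a ratio of 0.358 ± 0.108 in WT and 0.407 ± 0.0315 in recent KO, counting CPM of *Fcna* over CPM of summed C1q.

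*Cd5l* (chr3:87357881-87371073, plus strand) encodes a secreted scavenger receptor cysteine-rich protein of tissue macrophages, also called AIM. It was at 0.734, 0.832, 1.01, 1.01 and 1.86 CPM in WT and at 2.32, 5.73, 3.37, 2.25 and 3.25 CPM in recent KO. The groups did not overlap, although WT sample 5, with 31 reads, came close to recent KO samples 1 and 4. Its log2 fold change of 1.63 (SE 0.32) was close to those of *C1qc* and *Fcna*, which lay within its SE. The transcript was rare, at a mean of 0.476 TPM in WT and 1.56 TPM in recent KO, and with limma on log2(TPM + 1) its log2 fold change was 0.77.

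*Spic* (chr10:88674772-88685015, minus strand) encodes SPI-C, an ETS-family transcription factor that heme induces in monocyte-derived cells and that red pulp and marrow macrophages need. It was at 0.832, 1.16, 0.950, 0.544 and 1.32 CPM in WT and at 1.55, 2.31, 2.83, 2.13 and 2.27 CPM in recent KO, from 7 to 22 and from 22 to 58 reads. The groups did not overlap (log2 fold change 1.19, SE 0.27), and with limma on log2(TPM + 1) the log2 fold change was 0.67. Its order of samples differed from that of C1q, with recent KO sample 3 highest rather than sample 2 and WT sample 4 lowest.

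*Hmox1* (chr8:75093621-75100589, plus strand) encodes heme oxygenase 1, which opens the heme ring and releases iron. It was at 3.43, 5.93, 6.47, 4.20 and 9.10 CPM in WT and at 11.8, 19.9, 11.2, 9.13 and 7.47 CPM in recent KO. In recent KO, 4 of 5 samples were above every WT sample, and sample 5 was below WT sample 5. The means were 5.83 ± 2.21 and 11.9 ± 4.77 CPM (SD, n = 5 each), a log2 fold change of 1.02 (SE 0.28).

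*Slc40a1* (chr1:45908068-45926523, minus strand) encodes ferroportin, the exporter through which macrophages return iron to the plasma. It was at 3.43, 5.49, 5.88, 7.93 and 5.75 CPM in WT and at 7.17, 8.53, 5.08, 4.44 and 4.69 CPM in recent KO. The groups overlapped across most of their range, and only recent KO sample 2 was above every WT sample. The means of 5.69 ± 1.60 and 5.98 ± 1.79 CPM (SD, n = 5 each) differed by less than the spread within either group (log2 fold change 0.074, SE 0.23). The fold change was below 0 when WT replicate 1 was left out (-0.068) and when recent KO replicate 2 was left out (-0.086).

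*Vcam1* (chr3:116109949-116129688, minus strand) encodes an adhesion molecule of marrow macrophages and stroma that binds the integrin VLA-4 on progenitors. It was at 5.04, 14.0, 12.2, 9.33 and 9.998 CPM in WT and at 13.5, 15.4, 9.92, 9.56 and 8.92 CPM in recent KO. WT sample 1 was lowest, and the other 4 WT samples lay between 9.33 and 14.0 CPM, inside the range of the recent KO samples (log2 fold change 0.18, SE 0.23). Without WT replicate 1 the log2 fold change was -0.0015.

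*Mrc1* (chr2:14229392-14332057, plus strand) encodes the mannose receptor, CD206, an endocytic lectin of tissue macrophages. It was the scarcest of the 10 genes, at 0.441, 0.277, 0.416, 0.311 and 0.778 CPM in WT and at 1.13, 1.54, 1.03, 1.10 and 0.567 CPM in recent KO, or 4 to 13 and 11 to 22 reads. In recent KO, 4 of 5 samples were above every WT sample (log2 fold change 1.23, SE 0.37). Only 1 WT sample reached the filter on low counts against 5 recent KO samples, so *Mrc1* entered the fit through the group in which it was higher.

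The 10 genes together divided into a group of 8 with a log2 fold change of at least 1 and the pair *Vcam1* and *Slc40a1*, which were near 0. Among all genes tested, 100 (0.808%) had a log2 fold change of at least 1 in this direction. For 6 of the 10 every recent KO sample was above every WT sample, against 138 (1.11%) of all genes tested. An adjusted p under 0.05 from edgeR was reached by 3 of the 10 (*C1qa*, *C1qb* and *C1qc*), beside 0.331% of all genes tested. DESeq2 called 7 of the 10, beside 156 of 14360 genes (1.09%). EdgeR called 5 of the 10 with library sizes in place of TMM (0.372% of all genes tested) and 3 with RLE normalization (0.323%). It called 6 without the filter on low counts (0.738%) and 0 with a replicate block (0.162%). Limma on log2(TPM + 1) and on log2(TPM + 0.1) each called 1 of 9 tested, beside 0.242% and 0.232% of all genes tested. With 1 sample left out, edgeR called 0 of the 10 without WT replicate 2, 3 or 4 or recent KO replicate 3, 1 without WT replicate 1 or recent KO replicate 1 or 4, 3 without recent KO replicate 2 or 5, and 5 without WT replicate 5. In the same fits 0.198% to 0.718% of all genes tested were called. All 10 passed the filter on low counts, and their median log2 fold change was 1.24 beside -0.0018 over all genes tested. Because the genes were chosen with this contrast known, nothing further is read from these counts.

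**Figure D2:**
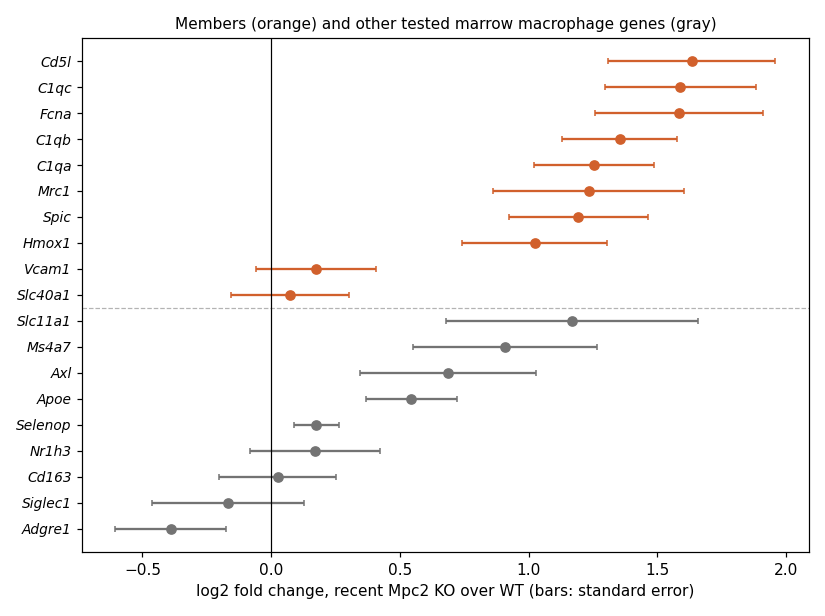
Log2 fold change of recent *Mpc2* KO over WT on the horizontal axis, with the standard error as a bar, for the 10 genes in orange and for the 9 other marrow macrophage genes with enough reads to test in gray. The orange points run from 0.074 (*Slc40a1*) to 1.63 (*Cd5l*) and the gray points from -0.39 (*Adgre1*) to 1.17 (*Slc11a1*). *Slc11a1* had at most 24 reads in a sample.

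The 10 genes were next compared sample by sample with the group difference removed, by subtracting each group mean from log2(CPM + 0.5). The deviation of each gene was set against that of summed C1q over the 10 samples, or of the other 2 chains summed for a C1q gene, and tested by exact permutation of the samples within groups (14400 pairings, two-sided, Benjamini-Hochberg adjustment over the 10 genes). Pearson's r had an adjusted p under 0.05 for 6 of the 10 genes (*C1qa*, *C1qb*, *C1qc*, *Fcna*, *Cd5l* and *Hmox1*). The rank correlation, Spearman's rho, did so for 4 of the 10, the C1q genes and *Fcna*. The C1q genes were set against each other. The permutation test was not run on other genes, so the share of all genes that would pass is not known. Because the genes were chosen with earlier results of these samples known, these p-values describe the 10 genes and are not independent evidence. Among tested genes outside the 10, 99.01% had a centred r with summed C1q below 0.707, the value of the complement gene *Cfd*. *Hcfc1* (0.939) and *Eif2b3* (0.918), also outside the 10, had a larger r than *Fcna*.

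By rank *C1qc* followed the other chains most closely (r = 0.919, exact p = 0.000139, adjusted 0.00139, and rho = 0.939, exact p = 0.000139, adjusted 0.00139). *C1qb* had r = 0.924 (exact p = 0.000417, adjusted 0.00208) and rho = 0.915 (exact p = 0.000625, adjusted 0.00313). *C1qa* had r = 0.851 (exact p = 0.00556, adjusted 0.0139) and rho = 0.830 (exact p = 0.00938, adjusted 0.0313). Leaving out the 2 samples farthest from the median of the other chains, r was 0.889 for *C1qc*, 0.870 for *C1qb* and 0.703 for *C1qa*. The r of *C1qa* missed the threshold without WT replicate 5 (r = 0.744, exact adjusted p = 0.0854) and without recent KO replicate 2 (r = 0.815, exact adjusted p = 0.0547).

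Among the 7 chosen genes outside the locus, *Fcna* followed C1q most closely, with r = 0.893 (exact p = 0.00326, adjusted 0.0109) and rho = 0.806 (exact p = 0.0131, adjusted 0.0326). For *Hmox1* r was 0.797 (exact p = 0.0101, adjusted 0.0198) and rho 0.636 (exact p = 0.0828, adjusted 0.118). For *Cd5l* r was 0.763 (exact p = 0.0119, adjusted 0.0198) and rho 0.6 (exact p = 0.0690, adjusted 0.115). Without WT samples 1 and 5, which lay farthest from the median of C1q, r was 0.798 for *Fcna*, 0.637 for *Hmox1* and 0.607 for *Cd5l*. Among single samples left out, *Cd5l* and *Hmox1* missed the threshold without WT replicate 5 (r of 0.623 and 0.706, exact adjusted p = 0.132 and 0.0914), and without recent KO replicate 2 (r of 0.7105 and 0.744, both at an exact adjusted p = 0.105). *Hmox1* also missed it without recent KO replicate 5 (r = 0.760, exact adjusted p = 0.0556).

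For the other 4 genes the test did not pass with all 10 samples. *Mrc1* had r = 0.684 (exact p = 0.0374, adjusted 0.0535) and rho = 0.527 (exact p = 0.143, adjusted 0.179). *Slc40a1* had r = 0.656 (exact p = 0.0574, adjusted 0.0718) and rho = 0.685 (exact p = 0.0406, adjusted 0.0811). *Vcam1* had r = 0.480 (exact p = 0.227, adjusted 0.252) and rho = 0.479 (exact p = 0.200, adjusted 0.222). *Spic*, although its groups did not overlap, had r = 0.257 (exact p = 0.521, adjusted 0.521) and rho = 0.358 (exact p = 0.363, adjusted 0.363). Without WT samples 1 and 5, r was 0.651 for *Mrc1*, 0.835 for *Slc40a1*, 0.491 for *Vcam1* and -0.14 for *Spic*. With 1 sample left out, *Mrc1* passed without WT replicate 1 or 4 or recent KO replicate 4 (exact adjusted p = 0.0451, 0.0412 and 0.0496), and *Slc40a1* without WT replicate 5 (exact adjusted p = 0.0324). *Slc40a1*, nearly equal between the groups, had a larger r than *Spic*, and the difference between these values was not tested.

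**Figure D3:**
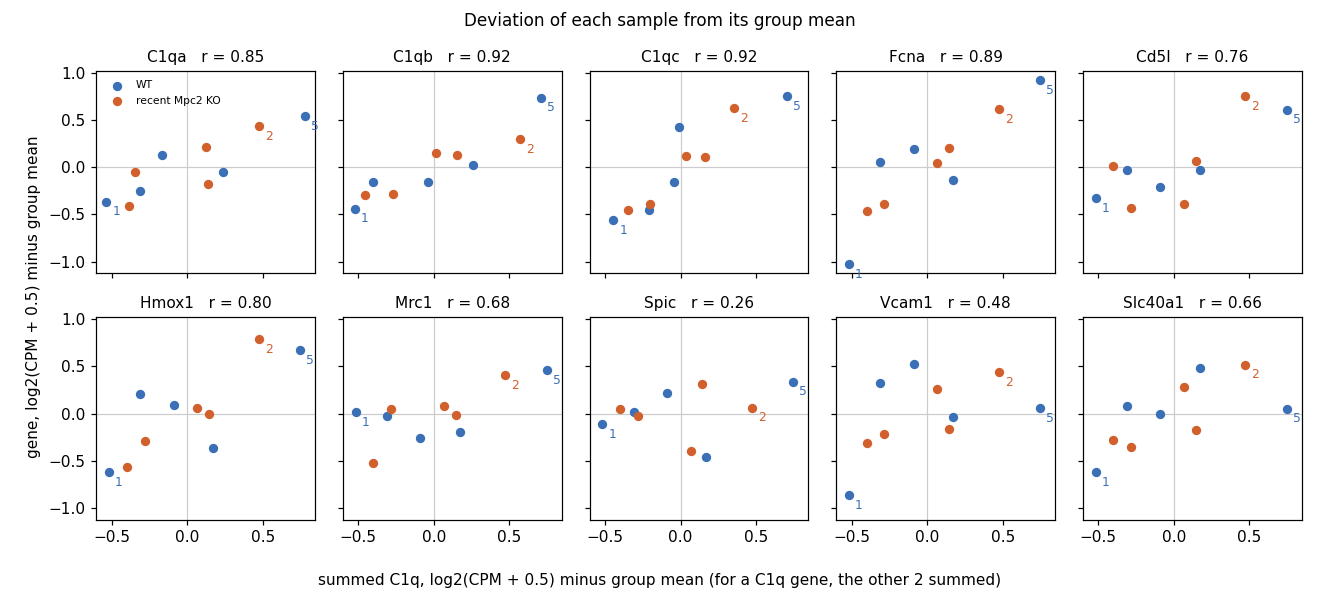
Each panel plots 1 gene on the vertical axis against summed C1q (for a C1q gene, the other 2 chains summed) on the horizontal axis, both as log2(CPM + 0.5) minus the group mean, with 1 dot per sample (WT blue, recent KO orange) and WT samples 1 and 5 and recent KO sample 2 numbered. WT sample 5 and recent KO sample 2 sit at the upper right and WT sample 1 at the lower left for *C1qb*, *C1qc* and *Fcna*, while the dots of *Spic* are more scattered (r = 0.26, not past the test).

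Levels were also expressed relative to C1q. The ratio of CPM to that of summed C1q was 0.110 ± 0.0167 in WT and 0.127 ± 0.0346 in recent KO for *Cd5l*, and 0.0463 ± 0.0165 and 0.0400 ± 0.00838 for *Mrc1*. For *Spic* it was 0.104 ± 0.0360 and 0.0871 ± 0.0255, and for *Hmox1* 0.602 ± 0.174 and 0.437 ± 0.0662. These ratios overlapped between the groups. *Vcam1* stood at 0.616 to 1.61 per unit of C1q in WT and 0.345 to 0.496 in recent KO, and *Slc40a1* at 0.354 to 0.780 and 0.177 to 0.264, without overlap in either case. The spreads are SDs over 5 samples per group, and no test was run on these ratios since they use the contrast that chose the genes.

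A list of 25 other genes of marrow macrophages was then examined in the fit across all genes. The defining surface markers were low in both groups and none passed the test. *Adgre1*, encoding F4/80, was at 3.02 ± 0.663 CPM in WT against 2.29 ± 0.449 CPM in recent KO (log2 fold change -0.39, SE 0.21, adjusted p = 0.569 from edgeR). *Siglec1*, encoding CD169, which marks the macrophages of erythroblastic islands, was at 2.71 ± 1.07 and 2.38 ± 0.717 CPM (log2 fold change -0.17, SE 0.30, adjusted p = 0.899 from edgeR). *Cd163*, the hemoglobin-haptoglobin scavenger receptor, was at 2.63 ± 0.848 and 2.69 ± 0.141 CPM (log2 fold change 0.025, SE 0.23, adjusted p = 0.982 from edgeR). *Mertk*, a receptor for apoptotic cells, had at most 7 reads in a sample and was not tested. The point estimates of these markers lay on either side of 0. The name marrow macrophage genes describes where the 10 genes are known from rather than a change of macrophage markers in general.

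Of the 25 genes, 23 had reads and 9 were tested, 7 with a positive and 2 with a negative fold change. An adjusted p under 0.05 was reached by 0 with edgeR or with DESeq2. At an unadjusted p under 0.05, 3 were higher in recent KO (*Apoe*, *Ms4a7* and *Slc11a1*) and 0 lower, beside 10.2% of all genes tested in either direction. *Slc11a1* had at most 24 reads in a sample, at 0.155 to 0.659 CPM in WT against 0.352 to 1.68 CPM in recent KO. Its passage through the filter on low counts therefore leaned on the group in which it was higher. The median log2 fold change of the 9 was 0.18. *Apoe*, the lipid carrier apolipoprotein E, was the most abundant and ranged from 23.7 to 56.8 CPM in WT and from 59.8 to 75.0 CPM in recent KO without overlap (log2 fold change 0.55, SE 0.18, adjusted p = 0.281 from edgeR). *Selenop*, the plasma selenium carrier, was at 30.7 ± 2.97 and 34.7 ± 3.36 CPM (log2 fold change 0.18, SE 0.088, adjusted p = 0.525 from edgeR). Summed, the list ran from 66.4 to 104 CPM in WT and from 107 to 128 CPM in recent KO, and *Apoe* and *Selenop* held most of it. *Lyve1* and *Clec4f*, the latter a marker of liver macrophages, had 0 reads in every sample.

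Among 31 other genes of the complement cascade, 15 were tested, 5 with a positive and 10 with a negative fold change, and 0 passed with edgeR. At an unadjusted p under 0.05, 0 were higher and 4 lower, beside 10.2% of all genes tested in either direction. DESeq2 called 1, *Calr*, as lower. The median log2 fold change was -0.091. *C1ra*, encoding a protease that C1q activates, was at 14.8 ± 3.43 CPM in WT against 16.5 ± 3.22 CPM in recent KO (log2 fold change 0.15, SE 0.16, adjusted p = 0.836 from edgeR), and *C1s1*, encoding its partner, had at most 3 reads in a sample. *Calr*, encoding calreticulin, a chaperone that also binds C1q, was at 3617 ± 503 and 2892 ± 144 CPM (log2 fold change -0.32, SE 0.098, adjusted p = 0.240 from edgeR). *C1qbp*, a mitochondrial protein also known as a C1q receptor, was at 416 ± 9.79 and 444 ± 27.1 CPM (log2 fold change 0.095, SE 0.057, adjusted p = 0.614 from edgeR). *Fcnb*, the ficolin that myeloid progenitors express, was at 11.5 ± 6.37 and 6.10 ± 5.45 CPM (log2 fold change -0.94, SE 0.57, adjusted p = 0.622 from edgeR), a point estimate opposite in sign to that of *Fcna*. *C1ra*, *C1s1* and *Fcnb* were named after their values were seen.

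Among 24 other genes of heme breakdown and iron handling, 20 were tested, 7 with a positive and 13 with a negative fold change. With edgeR 0 passed, and at an unadjusted p under 0.05, 0 were higher and 2 lower, beside 10.2% of all genes tested. DESeq2 called 0. The median log2 fold change was -0.017. The ferritin genes were the most abundant, *Ftl1* at 6133 ± 1072 CPM in WT against 5199 ± 590 CPM in recent KO (log2 fold change -0.24, SE 0.13, adjusted p = 0.554 from edgeR) and *Fth1* at 2779 ± 213 and 3143 ± 341 CPM (log2 fold change 0.18, SE 0.091, adjusted p = 0.534 from edgeR). *Blvrb*, which encodes a biliverdin reductase, was at 13.3 ± 2.69 and 14.8 ± 2.42 CPM (log2 fold change 0.15, SE 0.15, adjusted p = 0.813 from edgeR) and was named after its values were seen.

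Markers of other cells that a GMP gate can hold were measured beside C1q. In bulk RNA, more cells of a type and more RNA per cell cannot be told apart. Erythroid markers summed to 10.4, 43.7, 45.1, 24.6 and 21.7 CPM in WT samples 1 to 5 and to 27.1, 31.2, 213, 146 and 129 CPM in recent KO samples 1 to 5. Recent KO sample 2, highest for C1q, was within the WT range for erythroid markers, while sample 3, next highest for C1q, had the most erythroid RNA. All 8 tested erythroid genes had positive fold changes (median log2 1.74), and 0 passed with edgeR or DESeq2. Of them 6 had an unadjusted p under 0.05, beside 10.2% of all genes tested in either direction. The same 10.2% stands beside such counts in the marker lists below. *Hba-a2* and *Hbb-bs*, globin genes with near copies, had log2 fold changes of 2.07 (SE 0.59, adjusted p = 0.215 from edgeR) and 2.08 (SE 0.59, adjusted p = 0.214 from edgeR).

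Monocyte markers summed to 3125 to 4415 CPM in WT against 1499 to 4129 CPM in recent KO, and of 13 tested 4 had positive and 9 negative fold changes (median -0.23). With edgeR 0 monocyte genes passed, 1 was higher and 5 lower at an unadjusted p under 0.05, and DESeq2 called 1, *Cx3cr1*. *Ly6c2* had a log2 fold change of -0.57 (SE 0.31, adjusted p = 0.573 from edgeR) and *Lyz2*, encoding lysozyme, of -0.040 (SE 0.12, adjusted p = 0.947 from edgeR). Late neutrophil markers summed to 207 to 549 CPM in WT against 213 to 944 CPM in recent KO, and recent KO sample 2 was highest. Of 10 tested, 8 had positive fold changes (median 1.21), with 6 higher and 0 lower at an unadjusted p under 0.05 and 0 passing with edgeR or DESeq2. *S100a9* and *S100a8*, encoding the subunits of calprotectin, had log2 fold changes of 1.03 (SE 0.43, adjusted p = 0.425 from edgeR) and -0.079 (SE 0.43, adjusted p = 0.969 from edgeR).

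Dendritic cell markers summed to 43.1 to 62.7 CPM in WT against 56.3 to 70.6 CPM in recent KO. Of 5 tested, 4 had positive fold changes (median 0.43), 2 were higher at an unadjusted p under 0.05, and 0 passed with edgeR or DESeq2. *Cd74*, the invariant chain of MHC class II, and *H2-Ab1*, a class II chain, had log2 fold changes of 1.10 (SE 0.39, adjusted p = 0.331 from edgeR) and 0.12 (SE 0.098, adjusted p = 0.745 from edgeR). Megakaryocyte markers summed to 8.94 to 17.8 CPM in WT against 22.7 to 30.3 CPM in recent KO without overlap. All 3 tested had positive fold changes (median 0.57) at an unadjusted p under 0.05, 0 passed with edgeR, and DESeq2 called 1, *Pf4*. *Pf4*, encoding platelet factor 4, had a log2 fold change of 1.38 (SE 0.32, adjusted p = 0.122 from edgeR) and *Gp9* one of 0.57 (SE 0.20, adjusted p = 0.330 from edgeR).

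B and plasma cell markers summed to 165 to 208 CPM in WT against 119 to 164 CPM in recent KO, and *Ighm* and *Cd79b* held most of it. Of 3 tested, *Ighm*, the mu heavy chain gene, was called as lower in recent KO (log2 fold change -0.78, SE 0.15, adjusted p = 0.0468 from edgeR). DESeq2 called 3 genes of the list, with *Igkc* and *Jchain* higher. *Igkc* was at 0.0777 to 0.659 CPM in WT against 0.141 to 28.2 CPM in recent KO. *Jchain* was at 0 to 0.166 CPM against 0.122 to 2.16 CPM, and neither gene was tested with edgeR. T and NK cell markers summed to 1812 to 2632 CPM in WT against 1639 to 2200 CPM in recent KO, nearly all of it *Nkg7* (log2 fold change -0.25, SE 0.12, adjusted p = 0.495 from edgeR). Of the 3 tested 0 passed with edgeR or DESeq2, and 1, *Lck*, was higher at an unadjusted p under 0.05 (log2 fold change 0.62, SE 0.18, adjusted p = 0.238 from edgeR). Stroma and endothelium markers summed to 18.4 to 23.3 CPM in WT against 17.3 to 22.5 CPM in recent KO. Of the 2 tested 0 passed with edgeR or DESeq2 and 0 had an unadjusted p under 0.05, with *Pecam1* at a log2 fold change of -0.10 (SE 0.085, adjusted p = 0.763 from edgeR) and *Emcn* at 0.53 (SE 0.48, adjusted p = 0.790 from edgeR).

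GMP markers summed to 90327 to 127567 CPM in WT against 53883 to 92258 CPM in recent KO. All 12 were tested, 3 with a positive and 9 with a negative fold change (median -0.34). With edgeR 0 passed, 0 were higher and 8 lower at an unadjusted p under 0.05, and DESeq2 called 2, *Mpo* and *Fcgr3*. *Mpo*, encoding myeloperoxidase, and *Elane*, encoding neutrophil elastase, had log2 fold changes of -0.52 (SE 0.17, adjusted p = 0.272 from edgeR) and -0.63 (SE 0.23, adjusted p = 0.360 from edgeR). The part of these other cell types in the levels of C1q, *Fcna* and *Cd5l* was not tested.

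**Figure D4:**
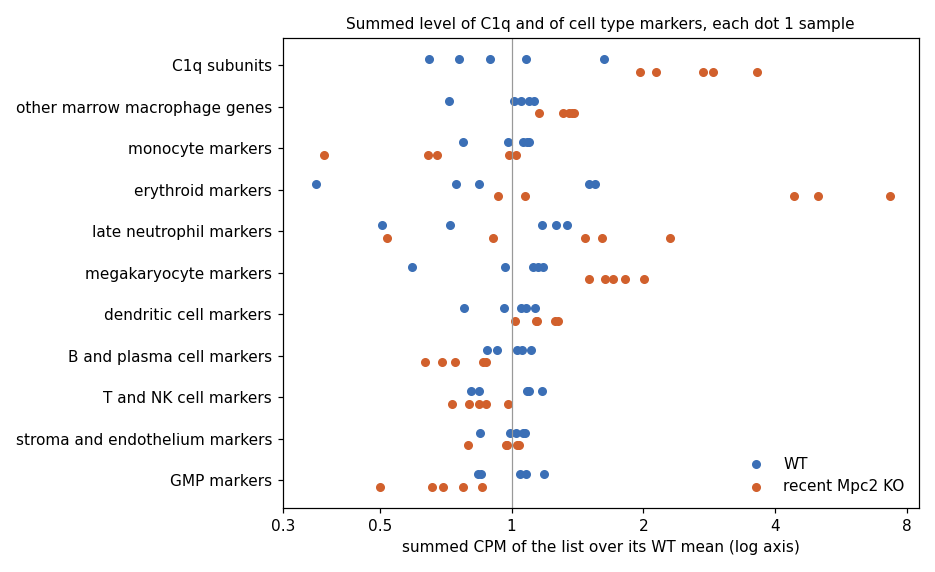
Summed CPM of the C1q genes and of 10 marker lists in each sample, divided by the WT mean of that list, on a log axis (WT blue, recent *Mpc2* KO orange, 1 dot per sample). C1q, the other marrow macrophage genes and the megakaryocyte markers are higher in recent KO without overlap between the groups. For the other marrow macrophage genes, mostly *Apoe* and *Selenop*, the gap is narrow (WT maximum 103.8 CPM, recent KO minimum 106.5 CPM). The summed B and plasma cell markers, mostly *Ighm* and *Cd79b*, are lower in recent KO, also without overlap but narrowly (WT minimum 164.5 CPM, recent KO maximum 164.3 CPM). *Igkc* and *Jchain* of that list had higher means in recent KO, with overlap between the groups. The erythroid dots of recent KO fall into 2 near the WT range and 3 far above it. The GMP markers lie lower in recent KO with a small overlap.

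The genes outside the 10 whose pattern over the 10 samples was most like that of summed C1q, by Pearson's r of log2(CPM + 0.5) and with the group difference included, were *Tamm41* (r = 0.957), *Ccr3* (r = 0.934), *Pcna* (r = 0.930), *Ear2* (r = 0.921) and the pseudogene *Gm6472* (r = 0.919). *Ccr3* and *Ear2* were rare transcripts, at 0.599 ± 0.383 and 0.459 ± 0.199 CPM in WT against 1.49 ± 0.466 and 1.31 ± 0.535 CPM in recent KO. *Gm6472* is a processed pseudogene whose reads are uncertain. After centring on the group means, the most alike outside the 10 genes were *Hcfc1* (r = 0.939), *Eif2b3* (r = 0.918), *Fam208b* (r = 0.882), *Clec4a3* (r = 0.882) and *Syne3* (r = 0.868). Among 12381 genes and 10 samples such values are a description of these libraries, whose depths differed within each group. *Fcna*, at 0.893 after centring, lay within the same range.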

How the data were processed

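The authors mapped paired-end reads of 150 bp from SMARTseq V4 libraries to Gencode M27 (GRCm39) and deposited, for each sample, Salmon estimated counts and TPM per transcript (Salmon 1.5.1 per the submitters' processing notes). A deposited DESeq2 table of the authors' own comparison (fold changes and p-values) was not used. Here the estimated counts and TPM were summed per gene through transcript identifiers of GENCODE M21 (GRCm38), which held 137161 of 140789 transcripts (97.42%). The 3628 others carried 0.348 to 0.390% of reads. Sums were rounded to whole numbers. Library sizes for CPM were scaled with TMM. The 5 recent KO samples were compared with the 5 WT samples by the quasi-likelihood test of edgeR 4.0.16 (R 4.3.3, filterByExpr with a minimum count of 10, Benjamini-Hochberg over all genes tested, threshold 0.05), checked on simulated counts. Alternatives were other normalizations, no filter, DESeq2 1.42.0, limma 3.58.1 on log2 TPM, a replicate block, and each sample left out. Replicates differed by more than sampling noise.

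The 10 genes and 12 further lists were chosen with earlier results of these data known. Named from each list were the genes past the threshold or else the 2 most abundant, the markers *Adgre1*, *Siglec1*, *Cd163* and *Mertk*, genes within 200 kb of C1q, and the 5 most like C1q in each of 2 measures. *Fcna*, *Mrc1* and *Vcam1* overlap other annotated genes, all with 0 reads, and strand was not stated. By sequence search only *Spic* and *Vcam1* share short stretches with other transcripts. The labels name biological replicates, and no batch is given. The floor of 3 counts covers counting error only.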

Additional observations from a re-analysis of the deposited data

Results flagged for a closer look

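A test for a sample far from the others of its group (Dixon's 95% critical value for 5 samples, 0.71) was applied to 46 groups of values, of which chance would mark about 2.3. It marked 3. *Cd5l* in WT sample 5 was at 1.86 CPM, against 0.734 to 1.01 CPM in the other 4 WT samples. This was also the WT sample with the most C1q. The other marrow macrophage genes summed to 66.4 CPM in WT sample 4, against 93.5 to 104 CPM in the other 4. Stroma and endothelium markers summed to 17.3 CPM in recent KO sample 1, against 21.1 to 22.5 CPM in the others.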

How the results depend on the processing

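The log2 fold change of summed C1q stayed between 1.28 and 1.66 under all 14 alternatives run on it. Genes called across all genes numbered 41, and 206 without a filter on low counts, 156 with DESeq2, 46 with library sizes in place of TMM (26 higher, 20 lower), 25 with limma on log2(TPM + 1), 24 with limma on log2(TPM + 0.1), and 25 to 91 with 1 sample left out. The other macrophage genes called went from 0 to 1 (*Apoe*, higher) without the filter, and the complement genes from 0 to 1 without the filter (*C3*, lower) and 1 with DESeq2 (*Calr*). Iron genes called stayed at 0. With 1 sample left out the log2 fold change of *Slc40a1* ranged from -0.086 to 0.22, below 0 without WT replicate 1 (-0.068) and recent KO replicates 1 (-0.00034) and 2 (-0.086), and that of *Vcam1* from -0.0015, without WT replicate 1, to 0.33. With limma on log2(TPM + 1) the log2 fold changes of *Cd5l* and *Spic* were 0.77 and 0.67. The r of *Spic* with C1q ranged from -0.11, without WT replicate 5, to 0.47. The number of the 10 genes following C1q within groups ranged from 3, without recent KO replicate 2, to 7. The causes were not tested.

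The labels give both groups the numbers 1 to 5. Same-numbered samples did not deviate together (r from -0.18 to 0.058). This cannot show whether they were handled in pairs, which the labels do not state. With a replicate block 20 genes were called, and 0 of the 10 genes. Reads limit the rarest genes, and *Mrc1* could not be fitted on TPM because of the filter.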
